A study of Mus musculus with 9 samples.

Results

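The cell cycle and DNA replication genes described here are 35 named genes, 15 of which act around S phase, when DNA is copied, and 20 in G2 phase and mitosis, when chromosomes are condensed and separated. They were chosen by name from known function, but with earlier results of these data known. All 35 were in the deposited expression table and passed the filter on low values, which kept 14955 of 22036 genes. RNA sequencing libraries were made from microglia, the resident macrophages of the brain, which were isolated by flow cytometry from wild-type female C57BL/6 mice. Mice aged 6 months are called young, those aged 15 months middle-aged and those aged 23 months old. There were 3 libraries of each age, every one a pool of RNA from 3 mice, so errors over libraries describe pools and not single mice. The sort gate and the read totals are unstated in the sources used here, and the depth is therefore unknown. All values are on the authors' log2 scale and are not divided by transcript length, so levels are compared within a gene and not between genes.

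Copying of DNA starts at origins onto which the MCM2-7 helicase is loaded, and it needs nucleotides made by ribonucleotide reductase and thymidylate synthase. Genes of this step are known targets of the E2F factors. Genes of G2 and mitosis are known to be repressed in resting cells and switched on later through a promoter element called the CHR, often beside CCAAT boxes that the factor NF-Y binds. Adult microglia are known to be a long-lived population that renews itself by slow division. Precursors of neutrophils in bone marrow divide, whereas mature neutrophils do not. The granule proteins neutrophilic granule protein (Ngp) and lactoferrin (Ltf) are made in that lineage.

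Promoters are shown for the 4 genes on which the results below turn most. Mki67 and Bub1 are G2/M genes whose values moved between libraries, Rrm2 is the S phase gene with the smallest p-value against Ngp and Ltf, and Mcm6 is the S phase gene with the smallest p-value between old and young libraries. Each window runs from 250 bases before to 50 bases after the gene's start, from RefSeq on GRCm38.p6, read 5′ to 3′ on the gene's strand. Capitals mark matches on either strand to an E2F element (TTTCGCGC, TTTGGCGC, TTTCCCGC or TTTGCCGC), a CHR element (TTTGAA or TTCGAA) or a CCAAT box (CCAAT).
Mki67 (chr7:135716330-135716629, minus strand): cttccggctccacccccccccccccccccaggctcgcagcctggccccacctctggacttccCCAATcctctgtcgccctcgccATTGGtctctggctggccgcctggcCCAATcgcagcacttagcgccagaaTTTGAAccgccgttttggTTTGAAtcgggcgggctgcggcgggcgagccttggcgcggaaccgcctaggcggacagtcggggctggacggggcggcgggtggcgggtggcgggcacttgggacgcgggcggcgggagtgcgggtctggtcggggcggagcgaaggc
Bub1 (chr2:127831810-127832109, minus strand): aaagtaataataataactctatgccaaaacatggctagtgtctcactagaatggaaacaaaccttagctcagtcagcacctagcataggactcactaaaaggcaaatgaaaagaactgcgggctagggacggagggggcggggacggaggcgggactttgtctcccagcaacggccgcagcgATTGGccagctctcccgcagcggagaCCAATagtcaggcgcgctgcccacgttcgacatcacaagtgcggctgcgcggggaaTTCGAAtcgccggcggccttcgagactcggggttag
Rrm2 (chr12:24708004-24708303, plus strand): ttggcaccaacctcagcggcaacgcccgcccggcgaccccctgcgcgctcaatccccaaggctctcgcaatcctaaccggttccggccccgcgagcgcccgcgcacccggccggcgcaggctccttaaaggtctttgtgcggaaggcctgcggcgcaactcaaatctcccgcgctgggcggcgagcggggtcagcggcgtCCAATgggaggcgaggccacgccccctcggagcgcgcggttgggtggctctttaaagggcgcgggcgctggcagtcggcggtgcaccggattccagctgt
Mcm6 (chr1:128359656-128359955, minus strand): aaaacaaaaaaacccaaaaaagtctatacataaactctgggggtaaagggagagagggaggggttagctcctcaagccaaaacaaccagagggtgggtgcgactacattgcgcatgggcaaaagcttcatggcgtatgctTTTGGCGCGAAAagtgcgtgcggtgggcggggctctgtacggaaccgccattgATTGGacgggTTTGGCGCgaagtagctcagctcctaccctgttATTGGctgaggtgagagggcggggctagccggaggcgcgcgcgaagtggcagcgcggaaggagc
The Mki67 and Bub1 windows hold CHR and CCAAT letters, the Rrm2 window a CCAAT box only, and the Mcm6 window E2F and CCAAT letters, with overlapping E2F matches on both strands at its first site. Promoters were matched for 30 of the 35 genes. An E2F match was present in 6 of 13 S phase promoters (46.2%) and in 1 of 17 G2/M promoters (5.88%), beside 2.32% of all 27025 mouse promoters of this length. A CHR match was present in 2 of 13 S phase promoters (15.4%) and in 13 of 17 G2/M promoters (76.5%), beside 19.4% of all promoters. All 13 of those G2/M promoters also held a CCAAT box, a combination found in 7.70% of all promoters. A match to these letters is a description of the window and does not show that a factor binds there.

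The labelled cell type was checked on 9 of 12 microglia markers. Tmem119, a membrane protein of microglia, lay between 15.20 and 15.52 in all 9 libraries, and Sall1, a microglial transcription factor, between 14.07 and 14.55. Genes of neutrophils were also present in every library. All 16 neutrophil genes in the table passed the filter, and their summed level lay between 18.40 and 19.20 in young libraries, between 18.99 and 20.12 in middle-aged ones and between 18.14 and 19.15 in old ones, on the log2 scale. The 7 markers of neutrophil precursors summed to between 13.09 and 13.72, between 13.61 and 14.58 and between 12.90 and 13.90 in the same order of ages. The microglia markers summed to between 20.72 and 20.91 in young libraries, between 20.46 and 20.66 in middle-aged ones and between 20.42 and 20.63 in old ones. Of these 9 markers, 8 had negative differences between middle-aged and young libraries, none called. Between old and young libraries 6 were lower at an unadjusted p under 0.05, and 2 of them fell, Siglech, a lectin, by 0.37 (limma adjusted p = 0.0439) and Fcrls, a receptor-like protein, by 0.39 (adjusted p = 0.0494). The 8 monocyte markers summed to between 15.52 and 15.66 in young libraries, between 15.32 and 15.80 in middle-aged ones and between 15.42 and 16.01 in old ones, and 3 of them rose between old and young libraries. The 6 markers of border macrophages summed to between 16.44 and 16.53, between 15.86 and 16.17 and between 15.85 and 16.09 in the same order of ages. All 6 were lower in old than in young libraries without overlap, and 1 of them fell. Of 11 markers of T and NK cells, 7 had all old values above all young ones and 1 had all of them below. Over all genes these shares were 12.2% and 12.3%. Of those 11 markers, 1 rose between old and young libraries. Old replicate 3 stood apart from the others: it held the highest value of 22.3% of all genes tested and the lowest of 26.1%, whereas each other library held at most 12.4% and 12.5%. In bulk RNA, a different number of cells of a type and a different amount of RNA per cell cannot be told apart.

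The G2/M genes moved together from library to library, whereas the S phase genes varied nearly as much singly but less together. Over deviations from the age means, the median correlation between pairs of genes was 0.43 within the G2/M list and 0.10 within the S phase list. Over pairs of all genes tested it was -0.001. For each gene the mean over the 9 libraries was taken away, and the remainders were averaged over the list. The 20 G2/M genes averaged -0.20, -0.03 and -0.13 in the young libraries, 0.16, 0.26 and -0.10 in the middle-aged ones and -0.11, 0.05 and 0.10 in the old ones. Middle-aged replicates 1 and 2 were the highest and young replicate 1 the lowest, and the middle-aged group overlapped both other ages through its replicate 3. In middle-aged replicates 1 and 2, 17 and 18 of the 20 G2/M genes lay above their own mean, whereas 7 did so in middle-aged replicate 3, 1, 5 and 2 in the young libraries and 4, 12 and 14 in the old ones. The 15 S phase genes averaged -0.08, 0.04 and -0.04 in the young libraries, 0.10, 0.09 and -0.08 in the middle-aged ones and -0.04, 0.03 and -0.02 in the old ones, with the 3 ages overlapping. The mean of the G2/M list was 0.11 ± 0.19 in middle-aged libraries, against -0.12 ± 0.09 in young ones, and 0.01 ± 0.11 in old ones (SD, n = 3 each). The spread within an age, as the median SD over the list, was 0.206 for G2/M genes and 0.184 for S phase genes, beside 0.127 for all genes tested.

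**Figure D1:**
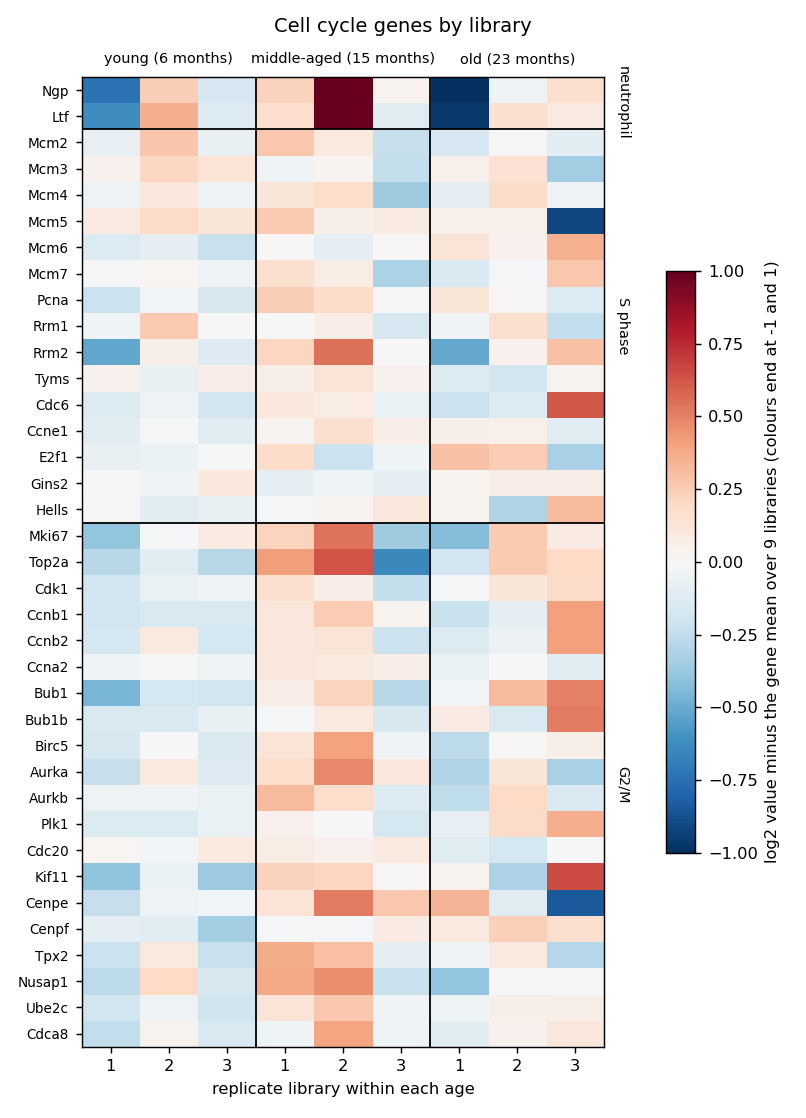
Each row is a gene and each column a library; the colour is the log2 value minus that gene's mean over the 9 libraries, for Ngp, Ltf, the 15 S phase genes and the 20 G2/M genes. Middle-aged replicate 2 is red across most G2/M rows and in Ngp and Ltf, and old replicate 3 holds both the reddest and the bluest cells among the cell cycle genes.

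Ngp and Ltf gave a similar order of libraries, with exceptions. The mean of Ngp and Ltf was 16.38, 17.37 and 16.90 in the young libraries, 17.26, 18.24 and 17.02 in the middle-aged ones and 16.07, 17.11 and 17.18 in the old ones. Middle-aged replicate 2 was the highest for both this mean and the G2/M list, and young replicate 1 and old replicate 1, the lowest in Ngp and Ltf, were among the 4 lowest for the G2/M list. Young replicate 2 did not follow: it was second highest in Ngp and Ltf but below the overall mean of the G2/M list, at -0.03. The 8 monocyte markers, as mean deviations, were at -0.37, -0.16 and -0.25 in the young libraries, 0.09, 0.34 and -0.19 in the middle-aged ones and -0.06, 0.60 and -0.01 in the old ones. They were thus also lower in middle-aged replicate 3 than in the other 2 of its age, and highest in old replicate 2. Middle-aged replicate 2 held the highest value of 11 of the 35 and the lowest value of 0. Over all genes, no library but old replicate 3 held the highest value of more than 12.4%. Old replicate 3 was mixed among the cell cycle genes, holding the highest value of 11 of the 35 and the lowest value of 8. It held the highest value of 22.3% of all genes and the lowest of 26.1%, so extremes of both kinds there were not particular to these genes. Mcm5, Cenpe and E2f1 were lowest there, and Cdc6, Bub1b, Kif11, Mcm6 and Hells were highest there.

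**Figure D2:**
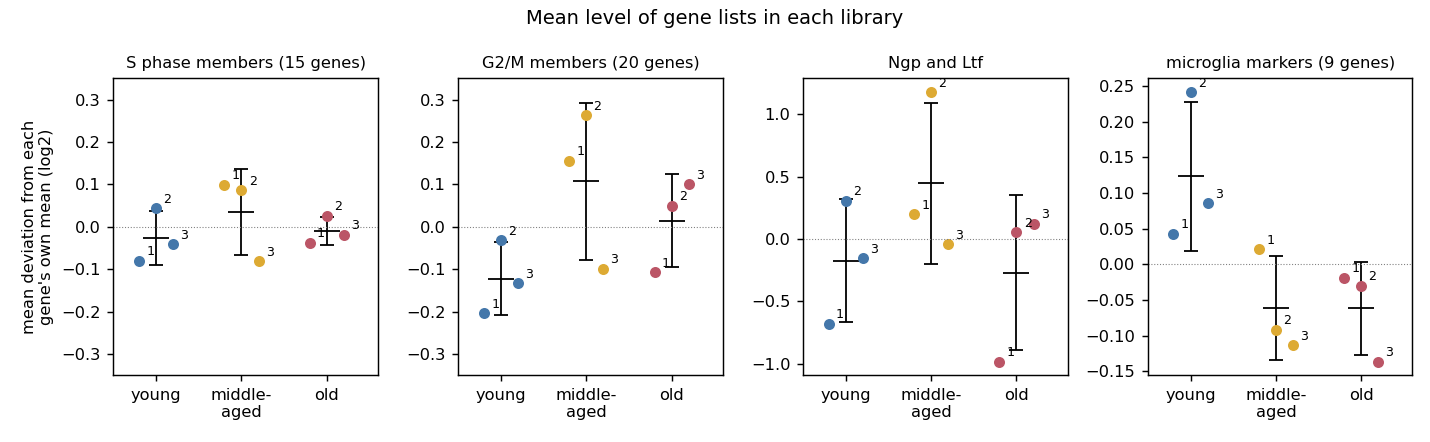
Points are libraries, numbered by replicate; the vertical axis is the mean log2 deviation of the list's genes from their own means, with a different range in the 2 right-hand panels, and bars are the mean ± SD over 3 libraries. The G2/M panel has its highest point in middle-aged replicate 2, at 0.26, which is also the highest in Ngp and Ltf, at 1.18, and not in the microglia markers, where it lies at -0.09.

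Across ages, none of the 35 genes passed the test. Differences were tested with limma over all 14955 genes, with Benjamini-Hochberg adjustment and a threshold of 0.05. In middle-aged against young libraries, 0 of the 35 were called, beside 17 genes (0.114%) of all those tested. The 20 G2/M genes all had positive differences, with a median of 0.26 on the log2 scale, and 10 of the 15 S phase genes did, with a median of 0.03, beside 49.6% positive and a median of -0.00 over all genes. Of the 35, 10 had all middle-aged values above all young values (28.6%, beside 11.6% of all genes), and 2 had all of them below (5.71%, beside 10%). At an unadjusted p under 0.05, 5 of the 35 differed, or 14.3% beside 11.4% of all genes. Without middle-aged replicate 2 the median of the 35 genes was 0.12 and none had an unadjusted p under 0.05. Without middle-aged replicate 3 the median was 0.20 and 11 had one. Young libraries mattered too, since the median was 0.13 with none without young replicate 3, and 0.14 with 1 without young replicate 1. It was 0.19 with 8 without young replicate 2, and 0.16 with 10 without old replicate 3.

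In old against young libraries 0 of the 35 were called, beside 299 genes (2%) of all those tested. The median difference was 0.15 for the G2/M genes, 14 of 20 positive, and 0.04 for the S phase genes, 10 of 15 positive, beside 47.4% positive over all genes. Of the 35, 5 had all old values above all young ones (14.3%, beside 12.2%) and 1 had all of them below (2.86%, beside 12.3%), and 4 had an unadjusted p under 0.05 (11.4%, beside 16.8%). Without old replicate 3 the median of the 35 was 0.02, against 0.08 with it. In old against middle-aged libraries 0 of the 35 were called, beside 26 genes (0.174%). The medians were -0.10 for the G2/M genes and -0.01 for the S phase genes, 3 of the 35 lay wholly above and 4 wholly below (8.57% and 11.4%, beside 6.47% and 6.41%), and 3 had an unadjusted p under 0.05 (8.57%, beside 10.2%). The median of the 35 in that comparison was -0.09, and it was 0.00 without middle-aged replicate 2, -0.02 without old replicate 1 and -0.15 without middle-aged replicate 3, where 7 of the 35 had an unadjusted p under 0.05. The F test over the 3 ages called 0 of the 35, beside 125 genes (0.836%), with 6 of the 35 at an unadjusted p under 0.05 (17.1%, beside 15.3%). The 3 comparisons share libraries pairwise, so they are not independent.

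**Figure D3:**
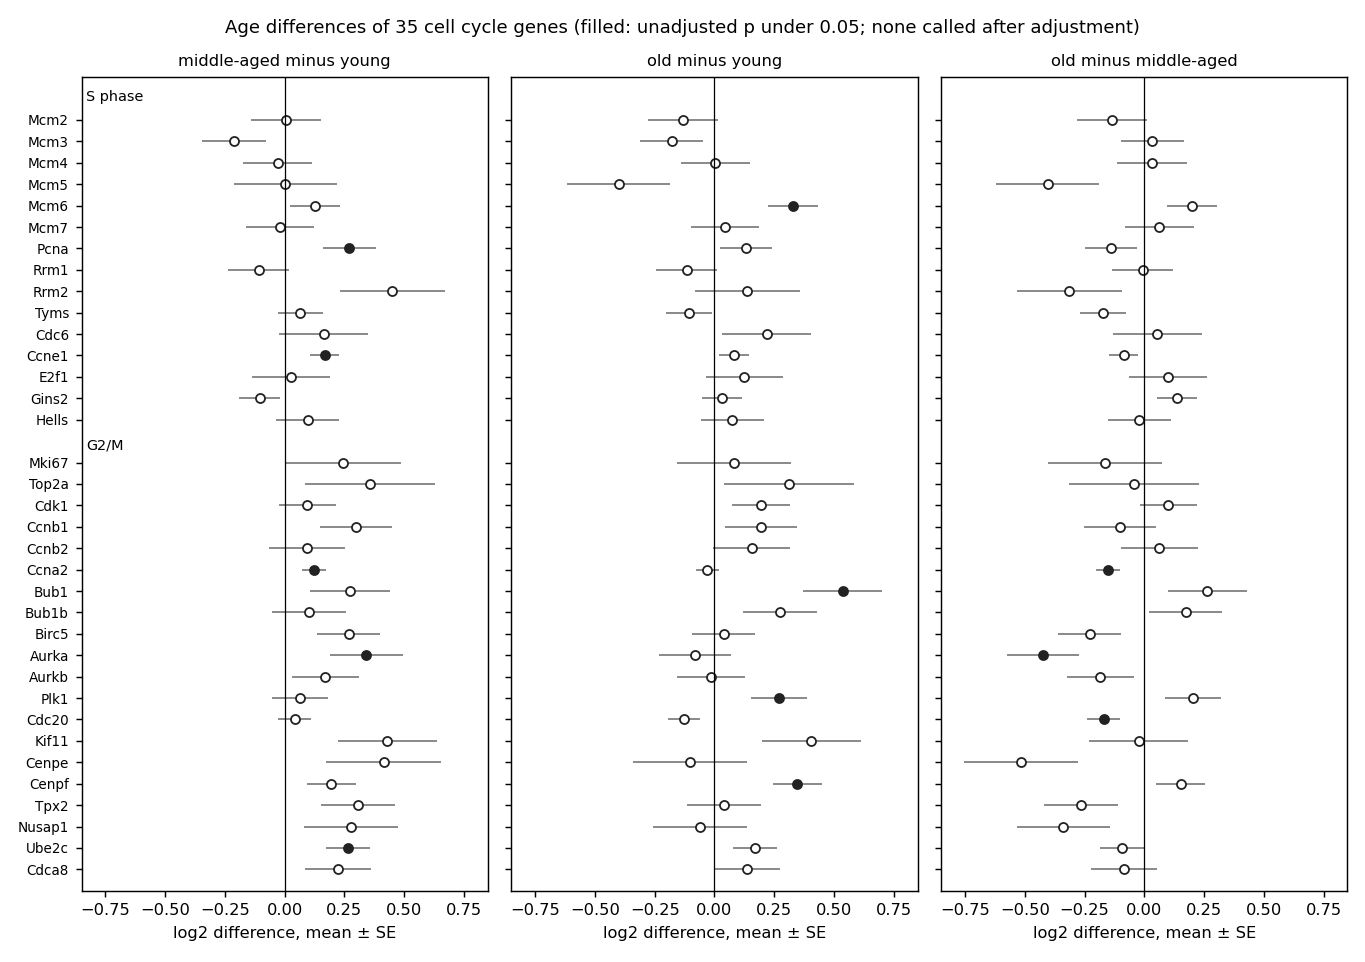
Points are the log2 differences of the 35 genes in each comparison and bars their SE from limma over 9 libraries; filled points have an unadjusted p under 0.05. All 20 G2/M points lie right of 0 in middle-aged against young, and 6 of 20 do in old against middle-aged.

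The authors' deposited tables, made with DESeq2, called 3 of the 35 higher in middle-aged than in young libraries, beside 3.26% of all genes with an adjusted p, and 3 higher in old than in young ones, beside 4.72%, with none lower. In both directions together these tables called 5.78% and 7.62% of their genes, and 1.32% in old against middle-aged libraries, where 0 of the 35 were called. In the authors' deposited table for middle-aged against young, Ccnb1 had a log2 fold change of 0.56 (adjusted p = 0.0277), Cenpe of 0.59 (adjusted p = 0.0289) and Kif11 of 0.55 (adjusted p = 0.046). In the authors' deposited table for old against young, Bub1 had a log2 fold change of 0.76 (adjusted p = 0.0161), Mcm6 of 0.60 (adjusted p = 0.0492) and Cenpf of 0.54 (adjusted p = 0.0495). Of these 6 genes only Bub1 was called on the log2 table under any covariate tried, and Mcm6 and Cenpf only with library weights, as given below.

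The 6 subunits of the MCM2-7 helicase, which unwinds DNA at the replication fork, did not move as one. Mcm6 was 8.68, 8.72 and 8.59 in young libraries, 8.82, 8.73 and 8.82 in middle-aged ones and 8.94, 8.86 and 9.17 in old ones. The 3 ages did not overlap. Its difference was 0.33 ± 0.10 (SE) between old and young libraries (limma adjusted p = 0.15) and 0.20 ± 0.10 between old and middle-aged ones (adjusted p = 0.548). Mcm5 was 10.88, 11.00 and 10.93 in young libraries, 11.07, 10.86 and 10.90 in middle-aged ones and 10.85, 10.86 and 9.90 in old ones. Its difference of -0.40 ± 0.22 between old and young libraries (adjusted p = 0.39) lay mainly in old replicate 3, since without that library it was -0.08. Mcm3 was 12.50, 12.67 and 12.59 in young libraries, 12.43, 12.49 and 12.22 in middle-aged ones and 12.51, 12.61 and 12.11 in old ones, with differences of -0.21 ± 0.13 between middle-aged and young libraries (adjusted p = 0.619) and -0.18 ± 0.13 between old and young ones (adjusted p = 0.534), the second of which was -0.03 without old replicate 3. Mcm4 was 11.24, 11.40 and 11.26 in young libraries, 11.41, 11.47 and 10.93 in middle-aged ones and 11.19, 11.48 and 11.24 in old ones, so its ages overlapped. Mcm2 and Mcm7 had differences between -0.14 and 0.06 in the 3 comparisons. Mcm7 overlaps Cops6 and Ap4m1 on the opposite strand, and whether reads were counted by strand is unstated in the sources used here.

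Genes that supply nucleotides and hold the polymerase differed in how much they varied. Rrm2, the regulated subunit of ribonucleotide reductase, was 10.18, 10.75 and 10.56 in young libraries, 10.91, 11.25 and 10.69 in middle-aged ones and 10.18, 10.74 and 10.99 in old ones. Its values spanned 1.07 over the libraries, and its difference between middle-aged and young libraries was 0.45 ± 0.22 (adjusted p = 0.487). Rrm1, the other subunit, was 11.82, 12.13 and 11.87 in young libraries, 11.86, 11.93 and 11.70 in middle-aged ones and 11.83, 12.02 and 11.62 in old ones, a span of 0.51. Pcna, the clamp that tethers DNA polymerase, was 10.69, 10.87 and 10.74 in young libraries, 11.14, 11.08 and 10.88 in middle-aged ones and 11.02, 10.91 and 10.76 in old ones. All its middle-aged values lay above all young ones, with a difference of 0.27 ± 0.11 (adjusted p = 0.382). Tyms, which makes thymidylate, was 11.06, 10.94 and 11.09 in young libraries, 11.07, 11.16 and 11.06 in middle-aged ones and 10.88, 10.84 and 11.06 in old ones. Its old values all lay below its middle-aged ones, the closest pair equal when rounded, with a difference of -0.17 ± 0.10 (adjusted p = 0.571).

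The S phase regulators also did not pass the test. Ccne1, cyclin E1 of the G1 to S step, was 5.39, 5.49 and 5.39 in young libraries, 5.53, 5.66 and 5.57 in middle-aged ones and 5.56, 5.56 and 5.39 in old ones. Its middle-aged values lay above its young ones by 0.17 ± 0.06 (adjusted p = 0.318). Cdc6, which loads the helicase at origins, was 8.22, 8.30 and 8.16 in young libraries, 8.46, 8.43 and 8.29 in middle-aged ones and 8.14, 8.22 and 8.98 in old ones, with its highest value in old replicate 3. E2f1, an E2F factor, Gins2, a subunit of the active helicase, and Hells, a chromatin remodeler, had differences between -0.10 and 0.14 in the 3 comparisons. Gins2 overlaps Gse1 on the opposite strand.

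Among markers of dividing cells, Mki67 and Top2a varied more between libraries than between ages. Mki67, which encodes the proliferation antigen Ki-67, was 9.83, 10.22 and 10.31 in young libraries, 10.45, 10.77 and 9.88 in middle-aged ones and 9.80, 10.49 and 10.32 in old ones. Top2a, which untangles DNA before chromosomes separate, was 11.00, 11.16 and 10.99 in young libraries, 11.69, 11.90 and 10.63 in middle-aged ones and 11.08, 11.53 and 11.47 in old ones. Middle-aged replicate 3 was the lowest library for Top2a, whereas the other 2 of its age were the highest. The differences between middle-aged and young libraries were 0.25 ± 0.24 for Mki67 and 0.36 ± 0.27 for Top2a, about as large as their SE, and those between old and young libraries were 0.08 ± 0.24 and 0.31 ± 0.27.

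The cyclins and kinases that drive entry into mitosis had higher middle-aged than young values for Ccnb1 and Ccna2, without passing the test. Ccnb1, cyclin B1, was 8.41, 8.45 and 8.46 in young libraries, 8.71, 8.86 and 8.64 in middle-aged ones and 8.38, 8.51 and 9.02 in old ones. Its middle-aged values did not overlap its young ones, with a difference of 0.30 ± 0.15. Ccna2, cyclin A2, was 5.73, 5.77 and 5.73 in young libraries, 5.89, 5.87 and 5.84 in middle-aged ones and 5.71, 5.77 and 5.66 in old ones. Its middle-aged values lay above those of both other ages, by 0.12 ± 0.05 over young ones (adjusted p = 0.368), and its old minus middle-aged difference was -0.15 ± 0.05 (adjusted p = 0.337). Ccna2 overlaps Exosc9 on the opposite strand. Cdk1, the kinase that binds these cyclins, had all old values above all young ones, with 9.12, 9.26 and 9.33 in old libraries, against 8.96, 9.07 and 9.09 in young ones. Aurka, a kinase of the spindle poles, was 8.31, 8.64 and 8.42 in young libraries, 8.72, 9.02 and 8.65 in middle-aged ones and 8.24, 8.66 and 8.22 in old ones. It was highest in middle-aged libraries, by 0.34 ± 0.15 over young ones (adjusted p = 0.425), and its old minus middle-aged difference was -0.42 ± 0.15 (adjusted p = 0.387), with 1 old value inside the middle-aged range. Plk1, a kinase of mitotic entry, was 7.34, 7.34 and 7.42 in young libraries, 7.52, 7.48 and 7.30 in middle-aged ones and 7.40, 7.67 and 7.84 in old ones, with an old minus young difference of 0.27 ± 0.12 (adjusted p = 0.273). Aurkb, a kinase of the chromosomal passenger complex, and Ccnb2, cyclin B2, had differences between -0.18 and 0.17.

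Bub1 and Cenpf, which act at the kinetochore, had the smallest p-values of the 35 genes in old against young libraries. Bub1, a kinase of the spindle checkpoint, was 8.23, 8.51 and 8.50 in young libraries, 8.75, 8.91 and 8.41 in middle-aged ones and 8.66, 9.01 and 9.19 in old ones. Its old values all lay above its young ones, by 0.54 ± 0.17 or 1.45-fold on this scale (adjusted p = 0.135), and the difference lay between 0.42 and 0.68 when each library was left out. Cenpf, a protein of the outer kinetochore, was 9.61, 9.60 and 9.36 in young libraries, 9.69, 9.68 and 9.78 in middle-aged ones and 9.80, 9.94 and 9.86 in old ones. Its 3 ages did not overlap, and its old minus young difference was 0.35 ± 0.10 (adjusted p = 0.118). Bub1b, a checkpoint protein, was 9.76, 9.53 and 10.20 in old libraries, against 9.53, 9.53 and 9.61 in young ones. Cenpe, a kinetochore motor, was 8.42, 8.60 and 8.62 in young libraries, 8.79, 9.17 and 8.92 in middle-aged ones and 8.99, 8.53 and 7.81 in old ones. Its middle-aged values lay above its young ones by 0.41 ± 0.24, and its old values spanned more than the other ages.

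Kif11, the motor that pushes spindle poles apart, was 8.37, 8.71 and 8.41 in young libraries, 9.01, 8.99 and 8.78 in middle-aged ones and 8.81, 8.47 and 9.43 in old ones. Its middle-aged values did not overlap its young ones, with a difference of 0.43 ± 0.21 (adjusted p = 0.48). Tpx2 and Nusap1, which act on spindle microtubules, had middle-aged minus young differences of 0.31 ± 0.15 and 0.28 ± 0.20. Birc5 and Cdca8, subunits of the chromosomal passenger complex, had differences of 0.27 ± 0.13 and 0.22 ± 0.14 in that comparison. Nusap1 overlaps Oip5, and Cdca8 overlaps 9930104L06Rik, each on the opposite strand.

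The 2 genes of protein destruction at the end of mitosis differed from each other in direction between old and young libraries. Ube2c, which attaches ubiquitin for the anaphase-promoting complex, was 6.89, 7.02 and 6.87 in young libraries, 7.20, 7.34 and 7.04 in middle-aged ones and 7.03, 7.13 and 7.13 in old ones. Both later ages lay above the young one, by 0.27 ± 0.09 in middle-aged libraries (adjusted p = 0.302) and 0.17 ± 0.09 in old ones. Cdc20, an activator of that complex, was 6.51, 6.46 and 6.59 in young libraries, 6.56, 6.53 and 6.59 in middle-aged ones and 6.37, 6.32 and 6.48 in old ones. Its old values lay below its middle-aged ones by -0.17 ± 0.07 (adjusted p = 0.44), and its old minus young difference was -0.13 ± 0.07. Cdc20 overlaps Elovl1 on the opposite strand.

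Most of these genes had a positive coefficient on Ngp and Ltf within an age, and none passed the test. In a limma model with age and the mean of Ngp and Ltf, whose coefficient was tested as an addition after seeing the data, the coefficient of Ngp and Ltf is the log2 change of a gene per unit of that mean among libraries of the same age. It was positive for 18 of 20 G2/M genes, with a median of 0.17, and for 12 of 15 S phase genes, with a median of 0.03, beside 48.5% positive and a median of -0.00 over all genes. None of the 35 passed the test, beside 27 genes (0.181%) of all those tested, of which 11 belong to the 16 neutrophil genes. Ngp and Ltf make up the mean and are 2 of these, so 25 genes remain without them, 9 of which belong to the other 14 neutrophil genes. At an unadjusted p under 0.05, 10 of the 35 had a positive coefficient (28.6%, beside 3.2% of all genes) and none a negative one. Without middle-aged replicate 2 that count was 5, and over the other 8 libraries left out in turn it lay between 7 and 12. Without old replicate 2, the coefficient of E2f1 was negative at an unadjusted p under 0.05 (limma adjusted p = 0.559). The neutrophil genes other than Ngp and Ltf had a median coefficient of 0.84, the neutrophil precursor genes of 0.49 and the monocyte markers of 0.35, whereas the microglia markers had a median of 0.02. An unadjusted p under 0.05 with a positive coefficient was found for 5 of 8 monocyte markers, 1 of them called. It was also found for 5 of 11 markers of T and NK cells and for 3 of 6 markers of the B lineage. The part that RNA of neutrophils, their precursors, monocytes or other cells has in the cell cycle values was not tested.

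Rrm2 had the smallest p, with a coefficient of 0.54 ± 0.09 (SE, limma adjusted p = 0.0663). Without old replicate 3 its coefficient was 0.50 (adjusted p = 0.0418), so that 1 library decides that call. Mki67 had a coefficient of 0.55 ± 0.12 (adjusted p = 0.256), Bub1 of 0.36 ± 0.09 (adjusted p = 0.453) and Nusap1 of 0.41 ± 0.11 (adjusted p = 0.538). Top2a had 0.50 ± 0.18 (limma unadjusted p = 0.0190). Middle-aged replicate 3 lay below the other libraries at a similar level of Ngp and Ltf. Without it the coefficient of Top2a was 0.28 ± 0.09 (unadjusted p = 0.0142), and without middle-aged replicate 2 it was 0.39 ± 0.24 (unadjusted p = 0.135). Mcm6 had 0.01 ± 0.09 and Cenpf 0.00 ± 0.09, and E2f1 had a negative coefficient of -0.20 ± 0.13. Leaving out each library in turn, the median coefficient of the G2/M genes lay between 0.15 and 0.22, and that of the S phase genes between 0.01 and 0.10.

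**Figure D4:**
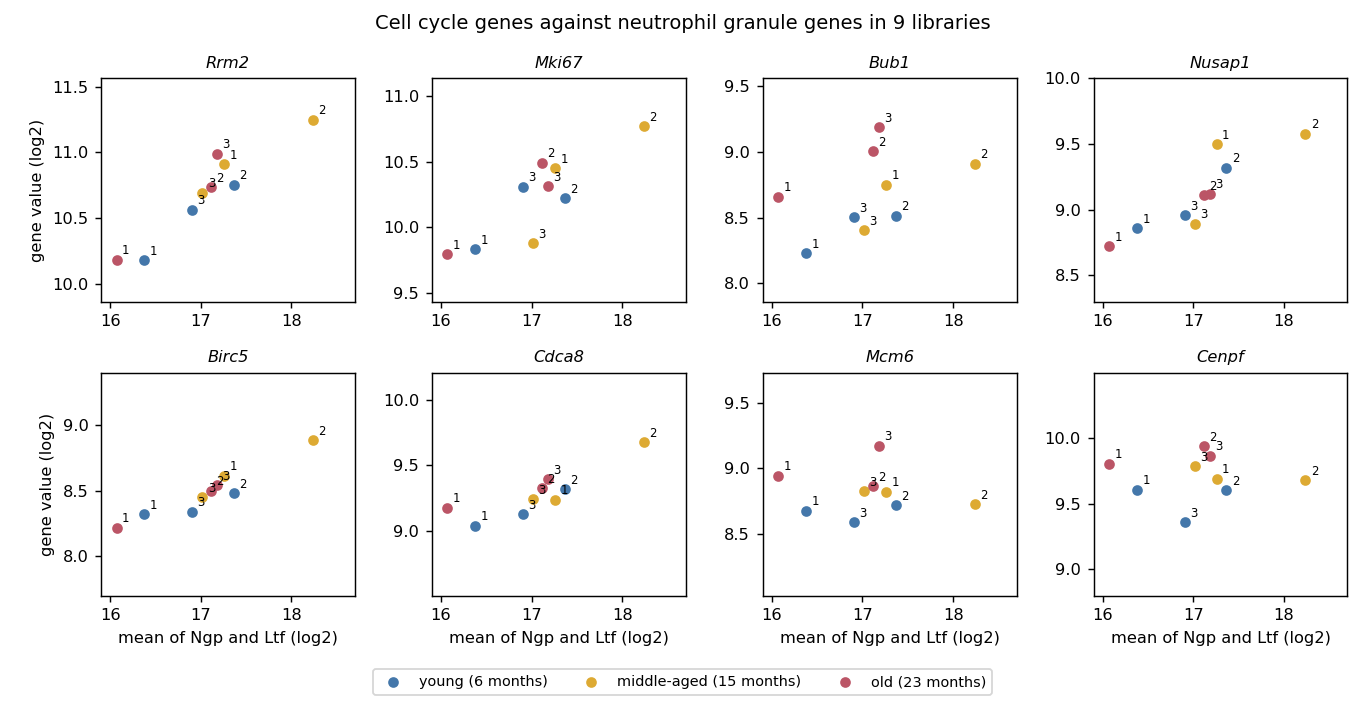
Each panel is a gene, with the mean log2 value of Ngp and Ltf on the horizontal axis and the gene's log2 value on the vertical axis, over a span of equal length; points are libraries, numbered by replicate and coloured by age. The 6 genes with the smallest p for the coefficient are shown first, then the 2 with the largest, Mcm6 and Cenpf, whose old libraries all lie above the young ones.

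With the mean of Ngp and Ltf in the model, the median difference of the 35 genes between middle-aged and young libraries was 0.05, with 26 positive and none at an unadjusted p under 0.05, against 0.16 and 30 without it. Between old and young libraries the median was 0.08 with and without it. Between old and middle-aged libraries it was 0.07, with 20 positive, against -0.09 and 13 without it. Bub1 then passed the test between old and young libraries, at 0.57 (limma adjusted p = 0.0331), higher in old libraries. It was 1 of the 35 (2.86%), beside 317 genes (2.12%) of all those tested. With the mean of 6 neutrophil precursor genes in its place, chosen after seeing the data, the 3 medians were 0.02, 0.08 and 0.05, and Bub1 was at 0.58 (adjusted p = 0.0149), beside 399 genes (2.67%). The F test of that model called Bub1, beside 1.07% of all genes. In it, the coefficient of the precursor mean was positive for 28 of the 35 genes, with a median of 0.21, beside -0.01 over all genes. None of the 35 passed the test for that coefficient, beside 2 genes of all those tested. In either direction, 15 of the 35 had an unadjusted p under 0.05 for it, beside 1446 of 14955 genes. When libraries were weighted by their residual spread, Mcm6 at 0.31 (adjusted p = 0.0262) and Cenpf at 0.39 (adjusted p = 0.0234) passed between old and young libraries, and Bub1 did not. These are 2 of the 35 (5.71%), beside 1609 genes (10.8%), and the weighted F test called 2 of the 35, beside 8.53% of all genes.

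The size of these differences depends on the log2 table. The authors' comparison tables give a base mean of normalized counts over each pair of ages, from which a mean for each age follows by arithmetic, if the same scaling holds in the 3 tables. These means have no error of their own. Over the tested genes with a mean level under 6, the log2 table changed by 0.0274 for each log2 unit of the ratio of these means between middle-aged and young libraries, and between levels of 8 and 10, where 18 of the 35 genes lie, by 0.415. Above 12, where Mcm3 lies, it changed by 0.753. Ccne1 had implied means of 15.7 in young, 81.7 in middle-aged and 45.2 in old libraries, and Ccna2 of 44.4, 96.7 and 27.7, while their log2 values moved by at most 0.17. Bub1 had implied means of 277, 404 and 662, Kif11 of 298, 540 and 613, and Plk1 of 136, 145 and 284 at the same ages. Cdc20 had 110, 121 and 46.3. Over all genes the median log2 ratio of these means was -0.17 between middle-aged and young libraries and -0.12 between old and young ones. In the log2 table these medians were -0.00 and -0.01, so the scaling of the implied means is in doubt. The implied means given above are not corrected for this offset. For Ccne1, Ccna2 and Cdc20 the authors' DESeq2 fold changes were smaller in size than the log2 ratios of the implied means, and why was not tested. Those ratios were 2.38 for Ccne1 and 1.12 for Ccna2 between middle-aged and young libraries, and -1.25 for Cdc20 between old and young ones. For middle-aged against young, Ccne1 had 0.11 (adjusted p = 0.403) and Ccna2 0.45 (adjusted p = 0.108), and for old against young Cdc20 had -0.31 (adjusted p = 0.42). The ratios of the implied means were not tested. Because the log2 table shrinks genes of low level most, its differences are not fold changes in abundance for genes such as Ccne1 and Ccna2.

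**Figure D5:**
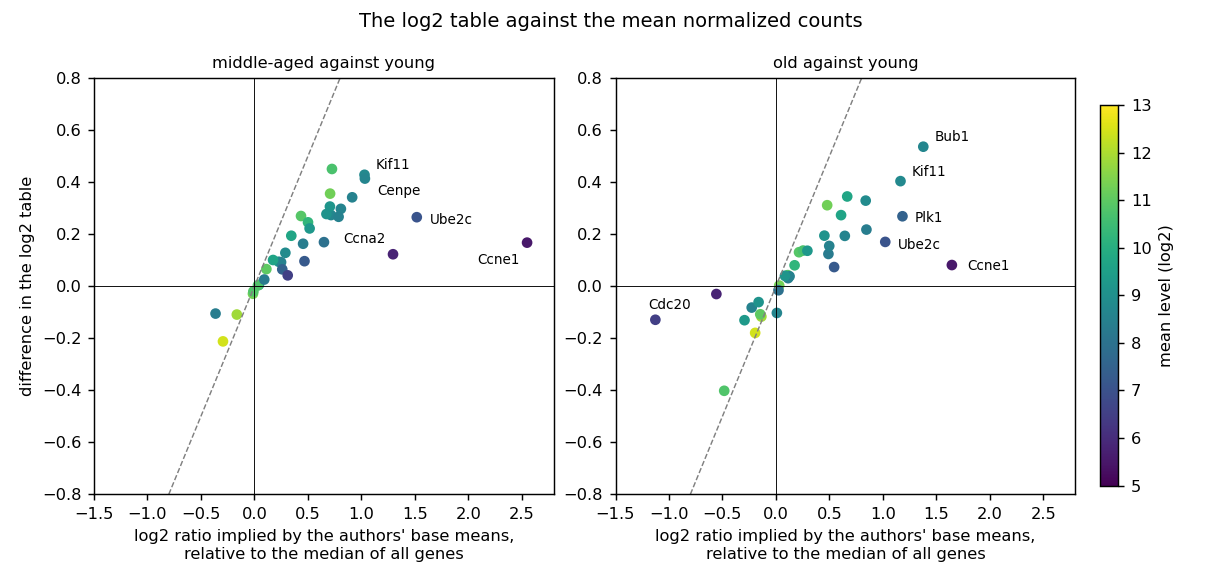
The horizontal axis is the log2 ratio of the means implied by the authors' base means, less the median of all genes, the vertical axis the difference in the log2 table, the colour the mean level, and the dashed line marks equality. Most points to the right of 0 lie under the line, with Ccne1, at the lowest level, farthest from it at a ratio of 2.55 in middle-aged against young.

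Other genes of the cell cycle were counted in 11 lists that do not contain the 35, some of which share genes with each other, with 211 distinct genes tested. In old against young libraries 3 of the 211 rose (1.42%), beside 254 of all genes (1.7%), and none fell, and in the other 2 comparisons none was called. Gas2l3, which binds actin and microtubules during cell division, rose to 11.10, 10.97 and 11.11 in old libraries, against 10.27, 10.19 and 10.18 in young ones, a difference of 0.85 ± 0.09 (limma adjusted p = 8.8e-04), and its middle-aged values of 10.68, 10.58 and 10.61 lay between. Dna2, a nuclease and helicase that processes Okazaki fragments and broken DNA ends, rose to 10.04, 10.26 and 10.03 in old libraries, against 9.22, 9.40 and 9.45 in young ones, by 0.75 ± 0.11 (adjusted p = 0.0073). Cdkn1a, which encodes p21, an inhibitor of cyclin-dependent kinases, rose to 11.39, 11.48 and 11.45 in old libraries, against 10.61, 11.04 and 10.81 in young ones, by 0.62 ± 0.12 (adjusted p = 0.0327). Its middle-aged values of 11.30, 11.52 and 11.25 also lay above all young ones, by 0.54 ± 0.12 (adjusted p = 0.159). For all 3 genes the old and young libraries did not overlap, which adds little, since they were named because this comparison called them. Over all genes 12.2% had all old values above all young ones.

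The remaining genes of the published S phase and G2/M scoring lists had medians of the same sign as the 35. Their 37 tested G2/M genes had a median difference of 0.12 between middle-aged and young libraries, 29 positive and 8 higher at an unadjusted p under 0.05 (21.6%, beside 6.21% of all genes), and 0.11 between old and young ones, 27 positive. Their 31 S phase genes had medians of 0.08 and 0.02. Among genes for origin licensing and firing, 0 of 15 were called, with a median of -0.13 between old and young libraries, 10 of them negative. Orc3, a subunit of the origin recognition complex, was 12.14, 12.11 and 11.90 in old libraries, against 12.40, 12.41 and 12.36 in young ones (adjusted p = 0.0862). In the lists for the replisome (32 tested), nucleotide supply (11), regulators of the G1 to S step (27), cyclin-dependent kinase inhibitors (5), the kinetochore and checkpoint (23), the anaphase-promoting complex (17), cohesin and condensin (20) and spindle motors and cytokinesis (18), Dna2 and Cdkn1a were the only genes called. The smallest p among uncalled genes of these lists, between old and young libraries, included Dck, which salvages deoxynucleosides, at 0.63 ± 0.14 (adjusted p = 0.0521), and Anln, a protein of the cleavage furrow, at 0.55 ± 0.14 (adjusted p = 0.073). Ncaph, a condensin subunit, was at -0.33 ± 0.11 (adjusted p = 0.176) and Usp1, a deubiquitinase of DNA repair in the S phase scoring list, at 0.37 ± 0.11 (adjusted p = 0.115). Of the others with the smallest p in their lists, Ncapd2 (-0.50), Pola1 (-0.43), E2f3 (-0.42), Cdc27 (-0.39), Dctd (-0.36) and Recql4 (-0.07) were lower in old libraries. Nuf2 (0.44), Ccnd2 (0.37), Knl1 (0.35), Anapc5 (0.26) and Tacc3 (0.25) were higher, and none of these was called.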

How the data were processed

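RNA was extracted from sorted microglia, with 3 mice pooled, and copied into libraries by a low-input kit, per the labels' protocols. The authors used CASAVA, cutadapt 1.13, STAR 2.5.3, DESeq2 1.16.1 and the mm10 build, per the submitters' processing notes. The read counter, its strand setting and the annotation are unstated in the sources used here. The authors deposited 1 table of log2 values per library, from -2.14 to 20.05, whose transformation the sources used here do not state. The authors' deposited comparison tables hold, per the file headers, a base mean (a signal in normalized counts), a log2 fold change with its error, a statistic (a score), a p-value and its adjusted form. Positive fold changes in the authors' tables mean higher at the later age: all 938, 1230 and 199 genes they call have the same sign in the log2 table.

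Genes with a value of at least log2 of 10, 3.32, in at least 3 of 9 libraries were tested. Limma 3.58.1 in R 4.3.3 was fitted to the 9 libraries with the 3 ages as groups and a variance trend, with two-sided tests, Benjamini-Hochberg adjustment over 14955 genes and a threshold of 0.05. With 3 libraries against 3, the smallest exact permutation p is 0.1, so calls rest on the spread pooled over genes. The test was checked on simulated data with noise drawn independently for each gene and library. Shifts shared by many genes of a library were not covered by that check. The 35 genes and all lists were chosen with earlier results of these data known. Full values were given for genes called, the 3 genes of each phase with the smallest p per comparison, the 3 of each phase with the highest mean, Mki67, Top2a, Ngp and Ltf; genes called in the authors' tables, and a few others given for their role, were added after values were seen. Of the other lists, called genes were named, and otherwise the 2 with the smallest p between old and young libraries. Alternatives covered a replicate block, filters, pseudocounts, scaling, the variance trend, library weights, pairs of ages alone, the neutrophil covariates and leaving out each library. Overlapping genes come from GENCODE M21 on GRCm38. Figures were drawn with matplotlib 3.10.9.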

Additional observations from a re-analysis of the deposited data

How the results depend on the processing

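Among values that passed no test, the mean S phase level, old minus young, was 0.02 and turned to -0.01 without young replicate 1 and to -0.00 without old replicate 2. The median of the 35 genes, old minus middle-aged, was -0.09 and turned to 0.07 with the Ngp and Ltf covariate. For middle-aged against young (17 genes called), the replicate block gave 11 genes, no filter 10, a filter at log2 of 50 gave 29, library weights 312, the Ngp and Ltf covariate 8, the precursor covariate 5 and the authors' deposited results 938. For old against young (299 genes), the block gave 185, no filter 170, library weights 1609, the 2 ages alone 153 and the authors' deposited results 1230. For old against middle-aged (26 genes), limma over the 3 ages gave 3 to 23 when 1 library was left out. There the block gave 14, no filter 9, a filter at log2 of 50 gave 47, no variance trend 3, library weights 62, the 2 ages alone 0, the Ngp and Ltf covariate 2, the precursor covariate 0 and the authors' deposited results 199. For the F test (125 genes), the block gave 80 and library weights 1275. Of the 35 genes, the authors' tables called 3 in each comparison with young, library weights 2 between old and young and 2 by the F test (Ccne1 and Cenpf), the Ngp and Ltf covariate 1 between old and young and the precursor covariate 1 there and 1 by the F test (Bub1 each time); why these calls differ was not tested. Leaving out each library gave 4 to 49, 84 to 322, 3 to 23 and 51 to 141 genes in the 3 comparisons and the F test, and 3 to 44 genes, with 0 to 1 of the 35, for the Ngp and Ltf coefficient.

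Same-numbered libraries of different ages did not deviate together (correlations between -0.24 and 0.23), and differently numbered ones had correlations between -0.44 and 0.42. With 3 libraries per age, these correlations cannot settle whether the numbers pair the samples, which the sources used here do not state. The block changed no call among the 35. Depth is unknown, and 3 pools per age, with SE from 0.05 to 0.27 for these genes, limit what could be called.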
